A study of Mus musculus with 16 samples.

Results

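The m6A regions described here were found in both replicate peak lists of one group and in none of the other 6 lists. They were selected on these lists themselves, so their presence in one group and their absence elsewhere is how they were chosen and not a finding. C57BL6/J mice aged 6 to 8 weeks had 2 h of middle cerebral artery occlusion with a nylon filament and then reperfusion (MCAO/R) for 0 h (Re-0 h), 6 h (Re-6 h) or 24 h (Re-24 h), and Sham mice had the neck operation with no filament inserted. RNA of cortical peri-infarct tissue was immunoprecipitated with an m6A antibody (MeRIP-seq), and 2 IP libraries of each group gave a peak list each. Each group had 6 mice, but how many animals went into a library is not given in the sources used here, so the spread between the 2 libraries may be technical. Input libraries were not analysed here, and a low transcript level and low methylation cannot be told apart where a peak is missing.

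The 8 lists held 18775 to 24078 peaks in 7422 to 9264 genes, and 169564 peaks in all. Peaks of one strand that overlapped by 1 or more bases of exon were merged, which gave 52769 regions. Of these, 1323 regions were in one group only. Both Sham lists and no other held 196 regions (0.371% of all regions), both Re-0 h lists 338 (0.641%), both Re-6 h lists 458 (0.868%) and both Re-24 h lists 331 (0.627%). They lay in 1201 of the 14018 genes with a peak in any list. On a list of 41 hypothalamic genes written after the regions had been seen, 21 and 26 genes had a peak in the Re-6 h libraries against 0 to 5 in the other 6, and all libraries are labelled cerebral cortical. Of the 41 genes, 18 hold Re-6 h-only regions and so were used by the rule, and the other 23 gave 3 and 8 in Re-6 h against 0 to 4 elsewhere. When both Re-6 h lists were left out, 359 Sham, 638 Re-0 h and 606 Re-24 h regions met the rule.

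N6-methyladenosine is written on adenosines of mRNA by the METTL3-METTL14 complex and bound by reader proteins of the YTH family, which act on decay and translation of the transcript. In mammals the modified adenosine usually lies in the sequence RRACH (R is A or G, H is A, C or U), and modified sites gather around stop codons and in long internal exons. Ischemia and reperfusion are known to switch on immediate early genes, heat shock genes and inflammatory genes within hours.

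Of the regions of at most 200 nt that lay whole in the coding part of 1 exon and touched no UTR of any annotated transcript, the 2 that ranked highest in each set are shown first, since they let the motif content of one-group regions be read directly. Capitals mark RRACH on the transcript strand (T stands for U), and sequences run 5′ to 3′ on GRCm39. The Sham regions are from *Slc8a1*, a sodium-calcium exchanger, at chr17:81956792-81956991 on the minus strand and from *Srrm2*, a scaffold of splicing speckles, at chr17:24036639-24036738 on the plus strand. Those of Re-0 h are from *Fnbp1l*, an actin regulator, at chr3:122338278-122338327 on the minus strand and from *Chl1*, a neural adhesion molecule, at chr6:103706095-103706169 on the plus strand. Those of Re-6 h are from *Prlr*, the prolactin receptor, at chr15:10328375-10328449 on the plus strand and from *Akap11*, an anchor of protein kinase A, at chr14:78751320-78751394 on the minus strand. Those of Re-24 h are from *Arhgap32*, a GTPase-activating protein, at chr9:32171014-32171088 on the plus strand and from *Macf1*, a crosslinker of microtubules and actin, at chr4:123366104-123366278 on the minus strand.
Slc8a1 (Sham): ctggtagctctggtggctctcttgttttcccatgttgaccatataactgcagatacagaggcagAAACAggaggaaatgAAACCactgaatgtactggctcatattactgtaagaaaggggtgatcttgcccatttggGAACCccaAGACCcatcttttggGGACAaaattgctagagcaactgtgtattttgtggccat
Srrm2 (Sham): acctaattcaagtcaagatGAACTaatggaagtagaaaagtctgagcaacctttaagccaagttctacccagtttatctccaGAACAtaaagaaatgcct
Fnbp1l (Re-0 h): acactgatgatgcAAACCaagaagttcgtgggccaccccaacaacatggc
Chl1 (Re-0 h): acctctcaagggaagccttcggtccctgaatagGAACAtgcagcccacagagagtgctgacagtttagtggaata
Prlr (Re-6 h): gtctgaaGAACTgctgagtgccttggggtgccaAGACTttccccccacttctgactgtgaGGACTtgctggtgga
Akap11 (Re-6 h): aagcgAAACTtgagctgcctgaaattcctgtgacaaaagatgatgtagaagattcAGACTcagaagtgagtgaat
Arhgap32 (Re-24 h): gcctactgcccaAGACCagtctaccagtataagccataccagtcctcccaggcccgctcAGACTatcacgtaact
Macf1 (Re-24 h): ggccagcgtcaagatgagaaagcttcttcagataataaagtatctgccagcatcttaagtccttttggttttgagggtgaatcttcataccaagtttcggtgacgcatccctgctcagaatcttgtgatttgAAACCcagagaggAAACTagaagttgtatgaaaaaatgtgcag
Each of the 8 holds at least 1 RRACH, and the *Slc8a1* region holds 5. The word GGACU, the most common m6A site in mammals, occurs in the *Prlr* region and in none of the other 7.

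The second set of sequences comes from Re-6 h and Re-24 h genes described below and was picked after their values were seen. The first 5 are 29-nt stretches around the RRACH nearest the middle of a 3′ UTR region, and the last is a whole coding region. They lie in *Gpr101* at chrX:56545215-56545243 (minus strand), *Six3* at chr17:85931604-85931632 (plus), *Ptx3* at chr3:66132715-66132743 (plus), *Arc* at chr15:74542908-74542936 (minus), *Junb* at chr8:85703886-85703914 (minus) and *Tlr13* at chrX:105200521-105200820 (plus).
Gpr101 (Re-6 h): agcaatgcctacGGACAtaaGGACTattt
Six3 (Re-6 h): cgcgacgccaacAGACAgtcacaaacgct
Ptx3 (Re-24 h): cgaatgaaggagAGACTtgagattgtctt
Arc (Re-24 h): ccctgtccagccAGACAtctactcaccca
Junb (Re-24 h): agctcacacactGGACTccggcccgcccg
Tlr13 (Re-24 h): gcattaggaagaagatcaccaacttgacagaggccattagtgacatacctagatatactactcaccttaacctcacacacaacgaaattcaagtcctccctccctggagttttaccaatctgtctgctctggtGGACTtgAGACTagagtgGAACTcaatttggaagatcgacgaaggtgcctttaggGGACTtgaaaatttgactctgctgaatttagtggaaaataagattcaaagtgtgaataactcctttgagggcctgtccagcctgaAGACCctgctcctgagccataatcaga
The *Gpr101* and *Junb* stretches hold GGACU, and so does the *Tlr13* region.

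The size of the sets was read against pairs of libraries from different groups. A region was in exactly 2 of the 8 lists in 7397 cases, and 17.9% of these were in the 2 lists of one group, where the 4 replicate pairs make up 14.3% of the 28 possible pairs. The 24 pairs from 2 groups held 148 to 422 such regions each, with a median of 244.5 and a mean of 253 ± 73.2 (SD, n = 24 pairs that share libraries). The Sham pair held fewer regions than most of them, being above 6 of the 24. The Re-0 h pair was above 21 and the Re-24 h pair above 20. Only the Re-6 h pair, with 458 regions, was above all 24. The sizes changed when every list was trimmed to its highest-scoring peaks, as many as the shortest list holds. The sets then held 248 Sham, 265 Re-0 h, 324 Re-6 h and 334 Re-24 h regions, and Re-6 h was no longer the largest. With the higher-scoring 50% of each list they held 93, 162, 274 and 149, and Re-6 h was the largest. Trimming removes low-scoring peaks as well, so the part of list length alone was not tested.

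**Figure D1:**
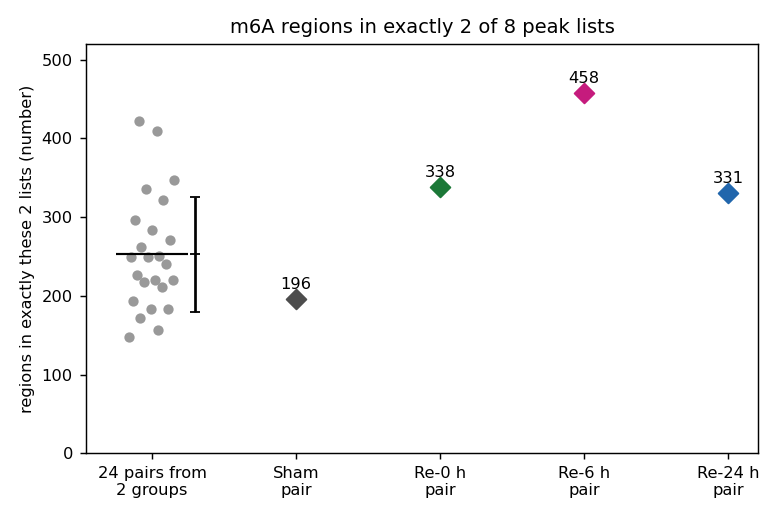
Number of regions found in exactly 2 of the 8 lists, for each of the 24 pairs of libraries from 2 groups (grey points, with their mean as a line and 1 SD as a bar) and for the replicate pair of each group (diamonds). The Sham pair, at 196, lies among the grey points, and the Re-6 h pair, at 458, lies above all of them.

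Most one-group regions had low-ranking peaks, which the lists' scores show. Each peak was ranked by its score within its own list, as the percent of peaks in that list with a lower score, and the lower of the 2 ranks stood for the region. The median of that rank was 29.6 in Sham, 18.7 in Re-0 h, 23.5 in Re-6 h and 19.0 in Re-24 h. Just outside the rule, regions in both lists of a group and in exactly 1 other list numbered 322, 540, 636 and 418, with median ranks of 34.0, 28.7, 30.2 and 25.1. Regions found in 1 list of a group and nowhere else ranked at 22.5, 19.6, 19.5 and 18.4. One-group regions ranked below regions in 1 more list in each group. The rank of a region in 1 list is a single value and not the lower of a pair, so it is not set against the others. Above the middle of both lists lay 56 Sham, 68 Re-0 h, 88 Re-6 h and 30 Re-24 h regions, and above 90 in both lay 2, 3, 7 and 0. A list records nothing below its calling threshold, so absence from it does not show that a site is unmethylated.

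**Figure D2:**
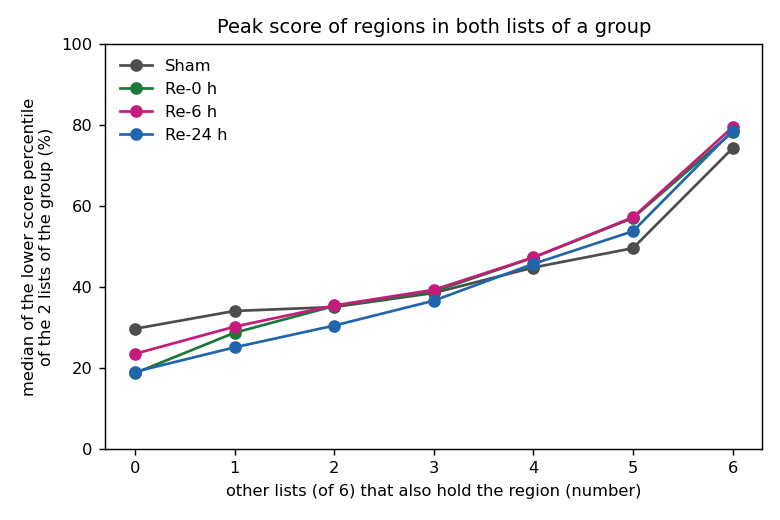
Median of the lower score rank (percent of peaks of the list with a lower score) of regions in both lists of a group, by the number of the other 6 lists that also hold the region. In every group the rank rises from the one-group regions at 0 other lists, at 18.7 to 29.6, to the regions in all 8 lists.

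The highest-ranking Sham regions were in genes with peaks in other groups too. *Ppp1r9a*, which encodes the spine scaffold neurabin, held the top region, a 175-nt stretch of coding sequence over 3 exons at chr6:5156202-5158200. It ranked at 94.6 in Sham replicate 1 and 92.6 in replicate 2. The nearest peak of another list lay 101 nt away along the exons, and all 6 other lists had peaks elsewhere in the gene. A second *Ppp1r9a* entry in the set kept only 2 nt of annotated exon, since most of its span lay outside the exons used, and is not read further. *Sel1l*, of the machinery that clears misfolded proteins from the endoplasmic reticulum, ranked at 91.9 and 90.4. Next came *Fam193a* at 87.4 and 92.7 and *Gpd2*, the mitochondrial glycerol-3-phosphate dehydrogenase, at 84.8 and 85.0. *Srrm2* held 2 coding regions, 100 and 150 nt long, in its long internal part, 51 and 126 nt from peaks of other lists.

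In Re-0 h the top genes were of mixed kinds. *Rbm25*, a splicing factor, ranked at 94.6 and 94.7 with a 50-nt region. *Hecw1*, a ubiquitin ligase, ranked at 91.4 and 94.9, with a peak of another list 26 nt away. The gene model *Gm44505* ranked at 91.3 and 91.0. *Trpm5*, a cation channel best known from taste cells, ranked at 89.0 and 90.4, and no other list had a peak in it. Of the genes with most regions, *Itpkb*, a kinase of inositol trisphosphate, and *Aebp1*, a matrix protein, had 2 regions each, and the highest of their ranks was 36.3.

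In Re-6 h the 2 highest-ranking genes had no peak in any other list, and the next 2 had peaks in all 6 others. *Gpr101*, an orphan G protein-coupled receptor known from the hypothalamus, held a 1150-nt region with 16 RRACH sites at chrX:56544678-56545827. The region was centred in the 3′ UTR, 362 nt past the stop codon, and reached into coding sequence. It ranked at 99.2 in replicate 1 and 99.3 in replicate 2. *Six3*, a homeobox gene of forebrain and hypothalamic development, followed with 600 nt and 15 RRACH sites at 97.0 and 97.1. *Hecw1* had a 50-nt region at 96.1 and 96.5, 2326 nt from the nearest other peak, and *Mycbp2*, a large ubiquitin ligase, a 175-nt region at 96.0 and 95.9. *Zim1*, an imprinted zinc finger gene, held 5 regions, the most of any gene in the 4 sets. Its peaks numbered 9 and 7 in the Re-6 h lists, 1 in Sham replicate 2, 1 in Re-0 h replicate 1, 2 in Re-24 h replicate 2 and 0 in the other lists. *Irs4*, an insulin receptor substrate, held 3 regions, with 4 and 6 peaks in the Re-6 h lists and 0 in the other 6.

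In Re-24 h no region ranked above 79.5 in both lists. *Pkp4*, a plakophilin of cell junctions, ranked at 80.2 and 79.5, *Pak5*, a neuronal kinase, at 78.7 and 82.3, and *Arhgap32* at 72.2 and 73.0. *Egr1*, an immediate early transcription factor, had a 100-nt region in its 3′ UTR at 72.1 and 71.0. *Arsj*, an arylsulfatase, had 4 regions, with 7 and 8 peaks in the Re-24 h lists, 3 in Re-6 h replicate 2 and 0 elsewhere. *Tlr13*, a Toll-like receptor for bacterial ribosomal RNA, had 3 regions, with 3 and 5 peaks in the Re-24 h lists and 0 in the other 6.

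**Figure D3:**
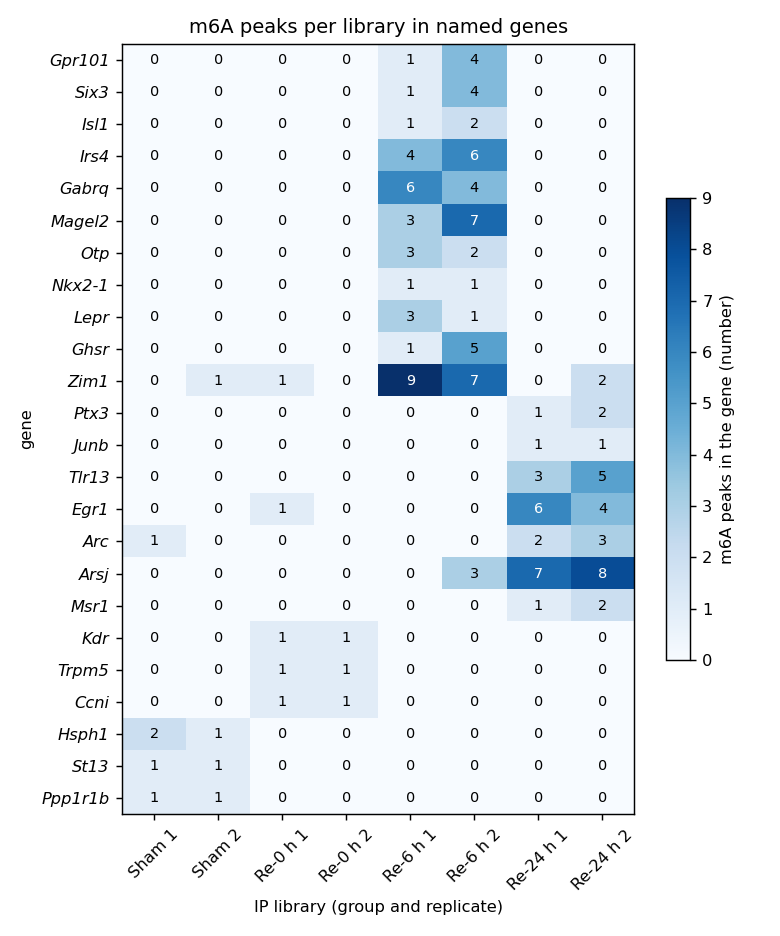
Number of m6A peaks per IP library (columns, group and replicate) in genes named in the text (rows). The genes from *Gpr101* to *Ghsr* have peaks in the Re-6 h libraries and none in the others, *Ptx3*, *Junb*, *Tlr13* and *Msr1* have peaks in the Re-24 h libraries alone, and the last 6 rows show genes of the Re-0 h and Sham sets.

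The place of a one-group region relative to other peaks separated 3 kinds. A peak of another list lay within 100 nt of exon for 28.1% of Sham (55 of 196; Wilson 95% interval 22.2 to 34.7), 30.8% of Re-0 h (26.1 to 35.9), 25.3% of Re-6 h (21.6 to 29.5) and 33.5% of Re-24 h regions (28.7 to 38.8). Such regions lay beside a peak of another group, as the *Slc8a1* region did. The same share ran from 27.8% to 41.3% over the 24 pairs from 2 groups. Most of the rest lay farther off in a gene with peaks elsewhere. In 10.2% of Sham (20 of 196; 6.70 to 15.2), 10.7% of Re-0 h (36 of 338; 7.79 to 14.4), 19.7% of Re-6 h (90 of 458; 16.3 to 23.5) and 16.3% of Re-24 h regions (54 of 331; 12.7 to 20.7), the gene had no peak in any other list. Over the 24 pairs this share ran from 6.01% to 14.0%, with a median of 9.91%, so the Re-6 h and Re-24 h values lay above all 24. All intervals cover counting error only. The share uses the same lists as the rule, and no test is given.

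In the Sham set, 19 genes had no peak elsewhere, 12 of them protein-coding. *Hsph1*, a chaperone of the Hsp110 family, had 2 and 1 peaks in the Sham lists and 0 in the other 6, with ranks of 51.2 and 70.3 for a 75-nt region in a non-coding exon. *St13*, a cochaperone of Hsp70, had 1 peak in each Sham list, in its 5′ UTR, and 0 elsewhere. *Ppp1r1b*, a phosphatase inhibitor of dopamine signalling abundant in striatum, likewise had 1 and 1 peaks, at ranks of 25.02 and 27.5. These regions were thus of middle or low rank.

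In the Re-0 h set, 36 genes had no peak elsewhere, 24 of them protein-coding, and none had more than 1 peak in both lists. After *Trpm5* came *Ccni*, a cyclin, with a 125-nt region in its 3′ UTR at ranks of 83.0 and 91.5, centred 134 nt past the stop codon. *Kdr*, the main endothelial receptor for VEGF, held a 300-nt region in its 3′ UTR with 4 RRACH sites at 16.8 and 58.0. *Flt1*, the other endothelial VEGF receptor of the vascular list, also held a Re-0 h region, at 34.7 and 57.5, but had peaks in 5 of the other 6 lists.

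In the Re-6 h set, 81 genes had no peak elsewhere, 58 of them protein-coding, and 12 had more than 1 peak in each Re-6 h list. Many of the leading ones are textbook genes of the hypothalamus. *Isl1*, a LIM homeobox gene, had 1 and 2 peaks in the Re-6 h lists and 0 in the other 6. *Otp* and *Nkx2-1*, transcription factors that pattern the hypothalamus, had 3 and 2 peaks and 1 and 1 peaks, in that order. *Lepr*, the leptin receptor, had 3 and 1, *Ghsr*, the ghrelin receptor, 1 and 5, *Magel2*, an imprinted gene of hypothalamic neurons, 3 and 7, and *Gabrq*, a GABA-A receptor subunit of the theta type, 6 and 4. Each of these had 0 peaks in all Sham, Re-0 h and Re-24 h lists, which is how they were picked.

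Lists of marker genes for brain areas were therefore written from textbook knowledge after these members had been seen, and they are given as counts with no test. Of 41 genes of the hypothalamus and preoptic area, 21 had a peak in Re-6 h replicate 1 and 26 in replicate 2. The other libraries had 0 and 3 (Sham), 1 and 1 (Re-0 h) and 1 and 5 (Re-24 h). These counts include genes that the rule used. Of the 41 genes, 18 held a Re-6 h-only region, 25 regions in all, and 17 of the 18 had no peak in any other list. The 23 genes that held no one-group region had 3 and 8 with a peak in Re-6 h. For them the other libraries gave 0 and 3 (Sham), 1 and 1 (Re-0 h) and 1 and 4 (Re-24 h). Re-6 h replicate 1 thus lay within the range of the other libraries, and replicate 2 lay above it. Among the 23, *Sim1* and *Fezf1*, both transcription factors of the developing hypothalamus, had peaks in both Re-6 h lists and in no other. *Six6*, *Nr5a1*, *Mc3r* and *Esr1* had a peak in Re-6 h replicate 2 alone. *Pmch* had peaks in Sham replicate 2 and Re-24 h replicate 2 alone, and *Pomc* in Re-24 h replicate 2 alone. *Crh* had a peak in replicate 2 of Sham, Re-6 h and Re-24 h, and *Mc4r* had peaks in every list but Sham replicate 1. The hormone genes *Avp*, *Oxt*, *Agrp*, *Hcrt*, *Trh*, *Ghrh* and *Gal* were at 0 peaks in all 8 lists. So were *Rax*, *Hmx2*, *Hmx3*, *Nr0b1*, *Calcr* and *Tac2*.

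The other area lists differed less. Of 17 genes of the cerebral cortex, such as *Tbr1* and *Cux2*, 14 or 15 had a peak in each library. Of 20 striatal genes, 8 and 9 had a peak in Sham, 8 and 8 in Re-0 h, 13 and 11 in Re-6 h and 9 and 11 in Re-24 h, and 2 of them, *Isl1* and *Six3*, are on the hypothalamic list as well. The thalamic list of 12 genes gave 5 to 8 and the list of 12 for choroid plexus and ependyma 1 to 4. The labels give the tissue of all libraries as cerebral cortical. These counts are of peaks and do not measure tissue composition, whose part in the Re-6 h set was not tested. Without the genes of the hypothalamic list the Re-6 h set kept 433 regions, of which 15.7% lay in genes with no peak elsewhere. In these bulk libraries, fewer cells of a type and less RNA per cell cannot be told apart.

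**Figure D4:**
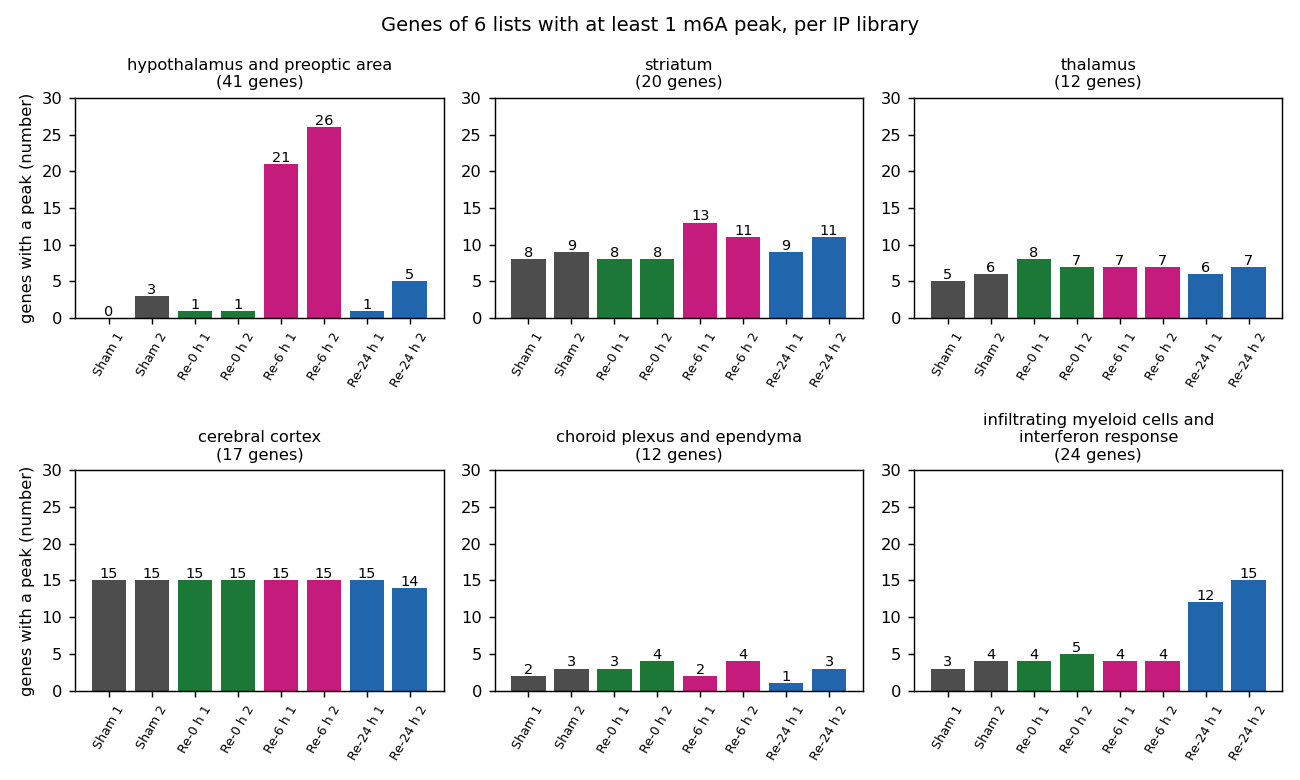
Number of genes with at least 1 m6A peak in each of the 8 IP libraries (bars, group and replicate) for 6 gene lists written after the regions had been seen. Genes with one-group regions, which the rule used, are counted in the bars. On the hypothalamic list the Re-6 h bars stand at 21 and 26 and the others at 0 to 5, on the myeloid and interferon list the Re-24 h bars stand at 12 and 15 and the others at 3 to 5, and the cortical bars stand at 14 or 15 throughout.

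In the Re-24 h set, 52 genes had no peak elsewhere, 35 of them protein-coding. *Ptx3*, a pentraxin of acute inflammation, had 1 and 2 peaks and ranked at 59.3 and 58.2 with a 200-nt region centred 96 nt past the stop codon. *Junb*, a subunit of AP-1, had 1 peak in each list, at 73.6 and 48.2, centred 79 nt past its stop codon. *Msr1*, a scavenger receptor of macrophages, had 1 and 2 peaks. *Uba3*, the activating enzyme of neddylation, had 1 and 2 peaks and a 75-nt coding region at 57.8 and 54.6. *Slfn2* and *Parp9*, interferon-induced genes, had 2 and 2 and 1 and 2 peaks. Of 24 genes of infiltrating myeloid cells and the interferon response, a list that was also written after the members had been seen and includes these genes, 12 and 15 had a peak in the Re-24 h libraries against 3 and 4 in Sham, 4 and 5 in Re-0 h and 4 and 4 in Re-6 h. The 17 genes of it without a one-group region gave 5 and 8 in Re-24 h against 3 or 4 elsewhere. *Lyz2*, *Ccr2*, *S100a8*, *S100a9* and *Adgre1* were at 0 in all 8 lists. Without the genes of this list the Re-24 h set kept 322 regions, of which 14.6% lay in genes with no peak elsewhere, beside the 14.0% of the highest of the 24 pairs. Whether cell content or transcript level sets these counts was not tested.

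Immediate early genes were among the named lists with the larger shares, and their one-group regions were mostly in Re-24 h. Of 25 genes on the list, all with a peak somewhere, 6 held a one-group region (24%), beside 8.57% of all genes with a peak. Their 8 one-group regions made up 7.14% of their 112 regions, beside 2.51% of all regions. *Egr1* had 6 and 4 peaks in the Re-24 h lists, 1 in Re-0 h replicate 1 and 0 elsewhere. *Arc*, an activity-regulated gene of synapses, had 2 and 3 in Re-24 h, 1 in Sham replicate 1 and 0 elsewhere. *Npas4* had its region in Sham, with 3 and 2 peaks there, 1 in Re-6 h replicate 1, 1 in Re-24 h replicate 1 and 0 elsewhere, and *Atf3* and *Maff* had theirs in Re-6 h. Of the 2 *Egr1* regions, the second ranked at only 0.267 in Re-24 h replicate 1, next to the end of that list.

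The other lists held 0 to 12 genes with a one-group region outside the zinc finger genes. Of 17 heat shock genes with a peak, 2 held one-group regions (11.8%, beside 8.57% of all genes), *Hsph1* and *Hspa1a*, and 7.02% of their regions were one-group regions, beside 2.51% of all. *Hspa1a* had a region in the Sham, Re-6 h and Re-24 h sets, each abutting a peak of another list (1 nt away), and its reads are hard to place because *Hspa1b* is nearly identical and reads with several alignments were removed by the authors. Of 21 innate immune genes 3 held one (14.3%): *Cd14* and *Socs3* held Re-6 h regions and *Il1r1* a Re-24 h region. Of 18 genes of ferroptosis, iron and antioxidant defence 2 held one (11.1%): *Srxn1* held a Sham region and *Acsl4*, which makes the lipids that ferroptosis oxidises, a Re-6 h region at ranks of 82.2 and 69.8. Of 19 hypoxia and vascular genes 3 held one (15.8%): *Kdr* and *Flt1* held Re-0 h regions and *Tjp1*, of tight junctions, a Sham region. None of the 20 genes of the p53 and cell death list, with 69 regions, held one, beside 8.57% of all genes and 2.51% of all regions. With so few genes this count is not read further.

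Among neuronal and nuclear genes, 4 of 34 glutamate receptor and scaffold genes held a one-group region (11.8%, beside 8.57% of all genes). Of their 218 regions, 1.83% were one-group regions, below the 2.51% of all regions. The genes were *Grin3a*, *Grm2* and *Dlg1* in Re-6 h and *Grik4* in Sham, and the *Dlg1* region kept only 14 nt of exon. The *Grin3a* region, 475 nt of coding sequence with 11 RRACH sites, ranked at 80.0 and 88.1, but a peak of another list lay 51 nt away. Voltage-gated channel genes gave 5 of 38 (13.2%) and axon guidance genes 2 of 46 (4.35%), beside 8.57% of all genes, while 1.92% and 0.676% of their regions were one-group regions, beside 2.51% of all. Histone-modifying enzymes gave 12 of 47 (25.5%), 6 of them in Sham. *Kat6b* and *Kat6a*, paralogous acetyltransferases, ranked highest of the Sham ones, at 85.5 and 78.2 and at 69.8 and 81.6. These are long genes with many peaks, and their 13 one-group regions made up 2.65% of their 490 regions, close to the 2.51% of all regions. Zinc finger genes named Zfp gave 29 of 354 (8.19%). Of 16 m6A writer, eraser and reader genes 3 held one (18.8%), and 3.41% of their regions were one-group regions. These were *Zc3h13*, *Mettl16* and *Rbm15b*, all on the writer side. The *Zc3h13* region, in Re-0 h, ranked at only 30.1 and 7.52 and held no RRACH. The *Mettl16* region, in Re-6 h, ranked at only 25.2 and 3.22, and the *Rbm15b* region, in Re-24 h, at 38.4 and 66.0. For *Zc3h13* and *Rbm15b* a peak of another list lay 101 nt away.

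Genes shared between sets were counted next. Of the 1201 genes, 1146 were in one set, 51 in 2, 4 in 3 and none in all 4. The 4 genes in 3 sets were *Hspa1a*, *Pcnt*, *Syne1* and *Zfta*, named here after their values were seen, and all 4 had peaks in every list outside each of their sets. Between any pair of sets, 6 to 15 genes were shared, which was 3.19% of the Sham and 1.79% of the Re-0 h genes at the fewest and 3.52% of the Re-6 h and 4.82% of the Re-24 h genes at the most. Each set held 1.34% to 3.04% of all genes with a peak, and these shares, given with no test, lay above the share that the other set of the pair had of all genes.

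The features of the regions, which the rule did not use, were compared between regions in the 2 lists of one group and regions in exactly 2 lists of different groups. The value was computed for each of the 28 pairs, and the mean of the 4 replicate pairs minus the mean of the other 24 was tested by a two-sided exact permutation over all divisions of the 8 libraries into pairs, with adjustment over 9 features. None passed. Mean exonic length was 157 ± 12.9 nt over the 4 replicate pairs against 144 ± 12.1 nt over the 24, with an exact permutation p of 0.0190 and an adjusted p of 0.171. For the other 8 features the exact permutation p lay between 0.229 and 0.571, and the adjusted p between 0.514 and 0.571. The smallest p this design allows is 0.00952. For 1 feature alone that adjusts to 0.0857, so a single feature could not pass 0.05 however large its difference. The lack of a pass therefore does not show that the features are alike.

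Single sets left the range of the 24 pairs for a few features, which are given as values with no test. In Re-24 h, 24.6% of centres (65 of 264; 19.8 to 30.2) lay within 200 nt of the stop codon, where the 24 pairs ran from 10.6% to 20.8% and the 12 of them with a Re-24 h library from 11.3% to 19.5%. The value was near the 25.3% of regions in all 8 lists, and even placement along the same transcripts gives 10.3%. In Sham it was 12.9%, in Re-0 h 17.7% and in Re-6 h 11.9%. *Ptx3*, *Junb* and *Arc* are examples of Re-24 h genes with a region in this window. Sham regions lay more often in coding sequence, at 60.7% (119 of 196; 53.7 to 67.3), just past the top of the 24 pairs at 60.1%, and less often in the 3′ UTR, at 19.9% against a lowest pair of 22%. Re-6 h regions had the longest mean, 171 nt against a longest pair of 169 nt. Their median was 125 nt, as in Sham and Re-0 h, and the longest median was 144 nt in Re-24 h.

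**Figure D5:**
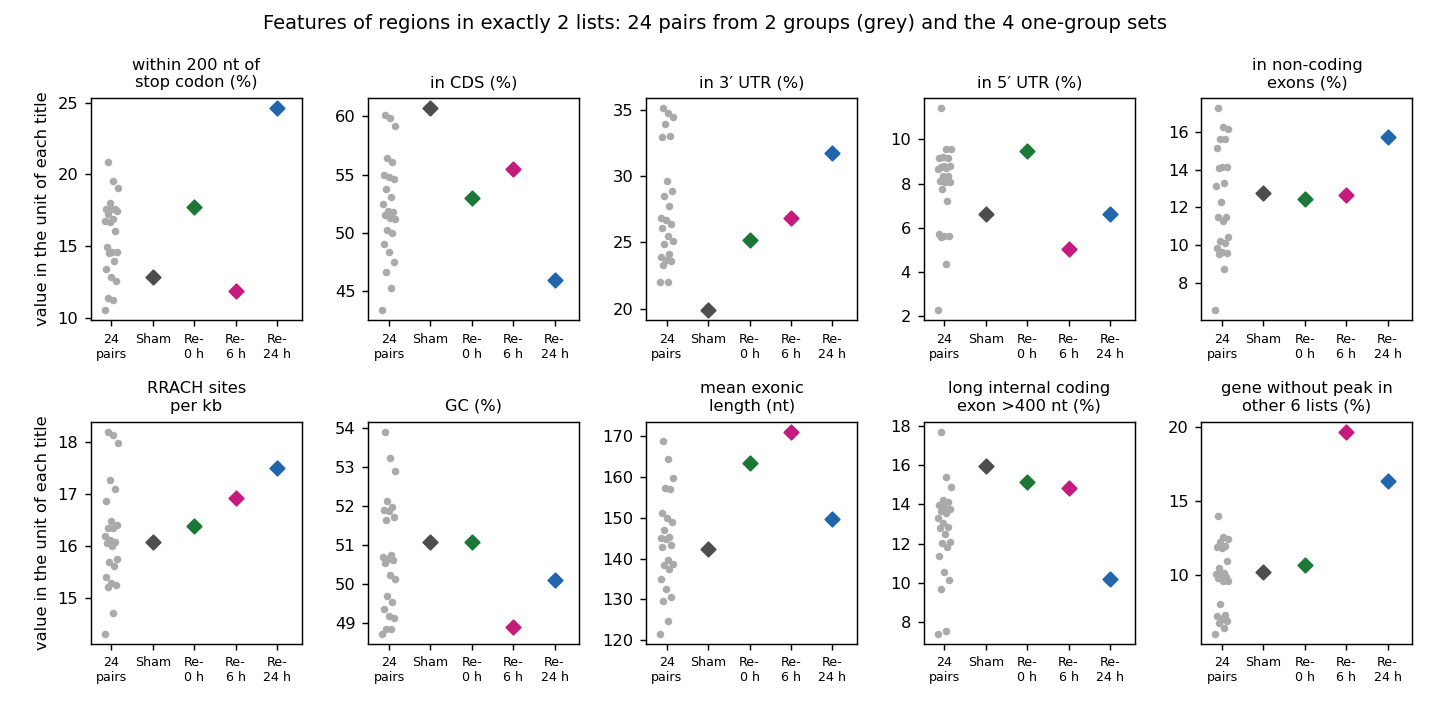
Each panel gives 1 feature of regions in exactly 2 lists, in the unit of its title, for the 24 pairs of libraries from 2 groups (grey) and for the 4 one-group sets (diamonds). The axes do not start at 0. The Re-24 h set stands above the grey points for centres within 200 nt of the stop codon at 24.6%, and the Re-6 h and Re-24 h sets for regions in genes with no peak in the other 6 lists at 19.7% and 16.3%.

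The density of RRACH differed little between the sets. There were 16.1 sites per kb in Sham, 16.4 in Re-0 h, 16.9 in Re-6 h and 17.5 in Re-24 h, all within the 14.3 to 18.2 of the 24 pairs. Exons of the same genes outside every peak had 14.2 to 14.6 sites per kb, and regions in all 8 lists had 18.5. At least 1 RRACH was found in 82.7% to 84.9% of one-group regions and in 99.4% of regions in all 8 lists, which are longer, at a mean of 661 nt. GGACU was found in 17.3% of Sham, 15.1% of Re-0 h, 19.7% of Re-6 h and 18.1% of Re-24 h regions, against 56.3%. Overlapping matches on the transcript strand were counted, and a match is no evidence of a modified base.

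Non-coding RNAs were counted in each set. Regions in non-coding exons made up 12.4% to 15.7% of the sets, within the 6.56% to 17.3% of the 24 pairs from 2 groups. Long non-coding RNA genes numbered 15 of 188 genes in Sham, 23 of 335 in Re-0 h, 28 of 426 in Re-6 h and 35 of 311 in Re-24 h. Of them, 5, 9, 14 and 15 had no peak in any other list. Their share among all genes with a peak was not counted, so these numbers are not read as high or low. Cell type markers of the labelled tissue were counted as well. Per library, 1 to 4 of 10 neuronal, 3 to 5 of 7 astrocyte, 2 to 5 of 8 microglial, 3 to 5 of 7 oligodendrocyte and 2 to 5 of 5 endothelial markers had a peak. *Flt1* was the only marker with a one-group region. Of all genes with a peak, 8.57% held one, so with so few markers this count is not read further.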

How the data were processed

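The 8 IP peak lists were deposited as BED files with a score per peak. The authors used Trim Galore, HISAT2 (GRCm39), SAMtools (unmapped and multi-mapped reads removed) and exomePeak2 (p-value threshold 0.05 and a fold-change cutoff). The deposited lists hold more peaks than the number of confident peaks per sample that the paper reports. What the deposited score measures is not stated, so it was used only as a rank within its own list. The lists hold no read counts, so depth is unknown.

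Peaks were reduced to GENCODE M39 exons of their gene and strand and joined into regions where they shared at least 1 exonic base. A region was assigned to coding sequence, a UTR or a non-coding exon by its middle base alone, with coding sequence taken first. Members, gene lists and tests were chosen with earlier results of these data known, and the 6 area lists were written after the members had been seen. Named protein-coding genes were, for each set, the 4 whose region had the highest lower rank, the 2 with most regions, and the 2 highest-ranking with no peak in the other 6 lists, plus at most 3 genes per set from each gene list. Genes of the area lists and *Ppp1r1b* were named after their values were seen. 1 gene of the cortical list is not reported here. RRACH was searched on the transcript strand of GRCm39. Feature differences were tested by exact permutation of the 8 libraries into pairs with Benjamini-Hochberg adjustment. Intervals are Wilson. Some regions kept under 50 nt of exon (7 Sham, 3 Re-0 h, 7 Re-6 h and 5 Re-24 h). Scripts ran in Python 3.11.15 with SciPy 1.17.1, NumPy 2.4.6 and pysam 0.24.0, and were tested on simulated lists. Alternatives changed the lists, joining rule, windows, motif and libraries.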

Additional observations from a re-analysis of the deposited data

How the results depend on the processing

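With 1 library left out in turn, the sets held 228 to 3428 (Sham), 415 to 4702 (Re-0 h), 527 to 4674 (Re-6 h) and 383 to 4452 regions (Re-24 h); the upper values come from the group that then has 1 list. The share of Re-6 h regions in genes with no other peak then ran from 14.7% to 21.1%. That of Re-24 h regions ran from 13.5% to 19.4%, where the highest of the 24 pairs had 14.0% with all 8 lists. Of the differences between replicate pairs and other pairs, stop codon ran from -2.04 to 3.51 percentage points, CDS from -1.40 to 3.50, 3′ UTR from -3.69 to 0.797, non-coding exons from -0.406 to 1.998, long internal exons from -0.617 to 1.96, GC from -1.20 to 0.635 and RRACH from -0.0526 to 0.703 per kb, while exonic length stayed positive (4.30 to 16.0 nt). With each list trimmed to an equal number of peaks, the sets held 248, 265, 324 and 334 regions and the share in genes with no other peak was 25% (Re-6 h) and 24.6% (Re-24 h). With the higher-scoring 50% of each list the sets held 93, 162, 274 and 149 regions, the share was 22.8% (Re-0 h), 33.9% (Re-6 h) and 36.9% (Re-24 h), and the differences were -2.34 for CDS and 0.257 for 5′ UTR. Requiring absence within 100 nt of exon left 220 Re-24 h regions. A 100-nt stop codon window gave -0.329 and the motif GGACU -0.0234 per kb. Alternatives chosen after seeing the data were leaving out both Re-6 h libraries, which gave 359 Sham, 638 Re-0 h and 606 Re-24 h regions, a Re-0 h share of 15.5% and differences of -1.997 (CDS), 0.601 (3′ UTR) and -0.206 (long internal exons), and leaving out the hypothalamic genes, which gave a Re-6 h share of 15.7%, or the myeloid and interferon genes, which gave a Re-24 h share of 14.6%. The cause of these shifts was not tested. No difference passed under any alternative, the smallest adjusted p by exact permutation being 0.0857. Replicates share only a number: with the replicate number as a block (24 divisions), the exonic length difference was 12.8 nt with an exact permutation p of 0.0417 (adjusted 0.375), and no call changed. That p is the smallest that 24 divisions allow, so 1 feature alone could not pass there either. The lists give no depth, so a peak missing from a list at low coverage cannot be told from one that is absent.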
